A study of Kluyveromyces lactis with 8 samples.

Results

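The transcriptome of Kluyveromyces lactis (the milk yeast) lacking SIR4 was set against that of K. lactis lacking SUM1. The comparison used the 2 libraries labelled sir4[delta] (here sir4∆) and the 2 labelled sum1[delta] (sum1∆), which are 4 of the 8 libraries of the study and were chosen by their labels alone. The remaining libraries came from sir2∆ (2 libraries) and from the wild type (WT, 2 libraries), and are used only to place the levels. All 4 strains, WT included, are haploid MATa cells that also lack the silent mating-type cassettes (hmr[delta] and hml[delta]), and each genotype is represented by 1 strain. Cells were harvested in early log phase in the rich glucose medium YPD at 30 °C, after growth from an OD of 0.3 to an OD of 1. RNA abundance is given as FPKM, the fragments assigned to a gene per kilobase of its length and per M fragments of the library, for 5076 genes. Genes averaging 1 FPKM or more across these 4 libraries were tested, which kept 5019, of which 3956 carry a gene symbol.

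Sum1 is a DNA-binding repressor. In Saccharomyces cerevisiae it keeps the middle sporulation genes silent in growing cells, and in K. lactis it is known to act together with the histone deacetylase Sir2 at sporulation and cell-type genes. Sir4 is a structural silencing protein that, in S. cerevisiae, carries Sir2 to the silent mating-type loci and telomeres. General stress genes, storage carbohydrate genes and ribosome assembly genes are known in S. cerevisiae as blocks that follow growth rate: the assembly factors of cytosolic ribosomes are made in fast-growing cells, and stress and storage genes in slow-growing or stressed cells. Respiration adds a further set, in which the chain's subunits, their assembly factors and the mitochondrial ribosome are made from separate gene groups. The roles given below are those of the S. cerevisiae genes of the same name.

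The level of SUM1 checks the sum1∆ label. SUM1 had 22.1 and 24.6 FPKM in the sir4∆ libraries, 0 FPKM in each sum1∆ library, and 31.2 and 28.0 FPKM in WT. SIR4 and SIR2 have no entry under these symbols, so the sir4∆ and sir2∆ labels were not checked. For the mating type, HMLALPHA1 and HMLALPHA2 were listed at 0 in all 8 libraries. STE2, the pheromone receptor gene of a cells, had 10.0 and 9.82 FPKM in sir4∆ and 8.10 and 9.78 FPKM in sum1∆. STE3, which in S. cerevisiae is transcribed in alpha cells, had 18.2 and 16.1 FPKM in sir4∆ and 15.1 and 16.5 FPKM in sum1∆, levels no lower than those of STE2. Estimated depth was 10.6 and 11.5 M assigned reads in the sir4∆ libraries, 21.8 and 26.3 M in the sum1∆ libraries, and 21.7 and 11.9 M in WT. Both sir4∆ libraries were thus shallower than both sum1∆ libraries, and depth and genotype cannot be told apart within these 4. The study's design calls the members of a group technical replicates, so p-values cover no more than the spread among these libraries, possibly a technical one.

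Of the 5019 genes tested, 245 (4.88%) were called higher and 635 (12.7%) lower in sir4∆ than in sum1∆ by limma, at an adjusted p below 0.05 and a log2 fold change of at least 1 in size. The calls lower in sir4∆ thus outnumbered those higher, and 27.8% of the calls were higher. Quantile normalization gave 344 higher and 551 lower, or 38.4% higher, and moved the median of all genes to 0.12, against 0.01 with the values as deposited. With the depth class of each library as a term, which WT and sir2∆ make estimable, 184 were higher and 572 lower, and 179 and 559 of these were among the calls given first. RNA came from whole cultures, so more cells with a transcript and more transcript per cell cannot be told apart. Both sir4∆ libraries lay above both sum1∆ libraries for 44.9% of genes and below them for 43.7%, so a lack of overlap is common among these libraries and says little on its own.

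**Figure D1:**
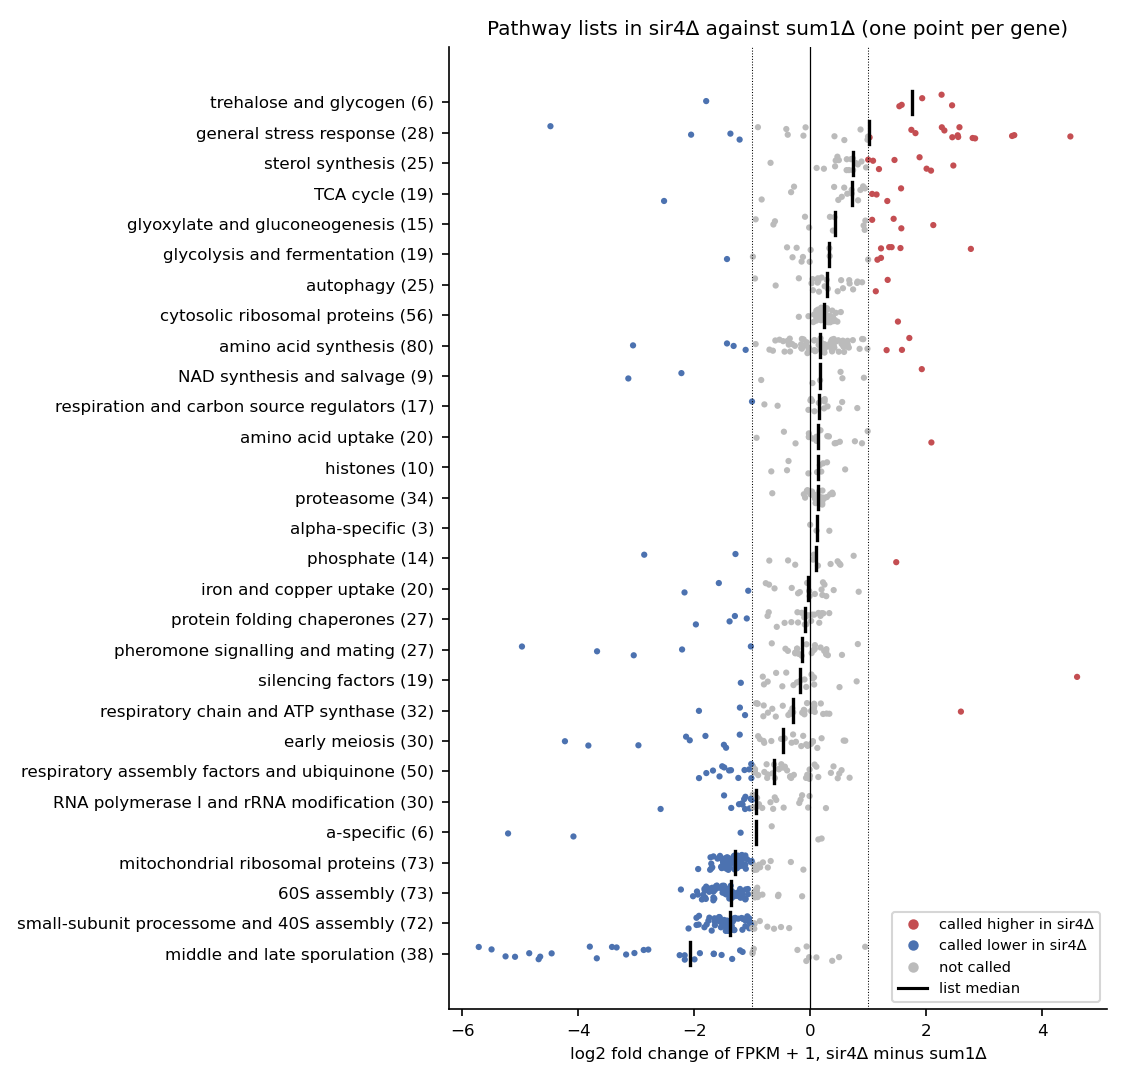
Log2 fold changes of FPKM + 1 (sir4∆ minus sum1∆, horizontal axis) of the tested genes of 29 pathway lists, 1 point per gene, with list medians as black bars, the number of genes tested in brackets and dotted lines at -1 and 1. The trehalose and glycogen list has its median at 1.76 and the general stress list at 1.01, while both ribosome assembly lists, the mitochondrial ribosome and the sporulation list have medians at or below -1.30. The red point of the silencing list beyond 4 is SUM1, the deleted gene.

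More general stress genes were higher than lower in sir4∆. Of 28 tested, 14 rose (50%, against 4.88% of all genes) and 4 fell (14.3%, a share near the 12.7% of all genes). The list's median log2 fold change was 1.01, against 0.01 over all genes. The median member's level was 349 and 316 FPKM in sir4∆, 108 and 116 FPKM in sum1∆ and 166 and 208 FPKM in WT. HSP12, which encodes a small membrane-stabilizing heat shock protein, had 21638 and 18592 FPKM in sir4∆, 846 and 940.2 FPKM in sum1∆ and 4045 and 5069 FPKM in WT. Its levels did not overlap between the groups and WT lay between them (log2 fold change 4.49 ± 0.14 (SE, n = 2 each), adjusted p = 7.72e-08 by limma). Of the genes with a symbol it showed the largest rise after SUM1.

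The same order of the groups held for CTT1, which encodes the cytosolic catalase. It had 1158 and 951 FPKM in sir4∆, 89.2 and 96.8 FPKM in sum1∆ and 176 and 278 FPKM in WT (log2 fold change 3.48 ± 0.22 (SE, n = 2 each), adjusted p = 2.81e-06). TMA17, whose product helps to assemble the proteasome under stress, had 1575 and 1508 FPKM in sir4∆, 131 and 136 FPKM in sum1∆ and 669 and 963 FPKM in WT (log2 fold change 3.52 ± 0.16 (SE, n = 2 each), adjusted p = 5.32e-07). Neither gene's levels overlapped between the mutants. OM45, a protein of the outer mitochondrial membrane, had 149 and 126 FPKM in sir4∆, 17.2 and 19.2 FPKM in sum1∆ and 56.9 and 65.7 FPKM in WT, a log2 fold change of 2.85. GRE3, an aldose reductase made under stress, had 1406 and 1089 FPKM in sir4∆, 168 and 185 FPKM in sum1∆ and 376 and 519 FPKM in WT, a log2 fold change of 2.80. In each of these genes both sir4∆ libraries were above both sum1∆ libraries. SPG4, a stationary-phase gene, was called higher by the same test (2.58), with 56.4 and 41.8 FPKM in sir4∆ and 7.28 and 7.34 FPKM in sum1∆. Its WT levels of 41.8 and 45.4 FPKM lay within the sir4∆ range (0.15 in sir4∆ minus WT, not called).

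The 4 stress genes that fell were MOH1, HSP78, GPX2 and CTA1. MOH1, a stationary-phase gene, had 14.4 and 16.1 FPKM in sir4∆, 344 and 379.6 FPKM in sum1∆ and 15.9 and 19.0 FPKM in WT (log2 fold change -4.48 ± 0.10 (SE, n = 2 each), adjusted p = 8.63e-09), and it was also high in sir2∆, at 309 and 294 FPKM. HSP78, a chaperone of the mitochondrial matrix, had 21.8 and 23.2 FPKM in sir4∆, 97.1 and 96.3 FPKM in sum1∆ and 32.4 and 28.3 FPKM in WT, a log2 fold change of -2.05. GPX2, a hydroperoxide-reducing peroxidase, and CTA1, the peroxisomal catalase, had log2 fold changes of -1.38 and -1.22. The cytosolic catalase gene thus rose where the peroxisomal one fell.

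Most storage carbohydrate genes rose. Of the 6 trehalose and glycogen genes tested, 5 rose and 1 fell (median 1.76), and WT lay between the mutants in all 6. With the depth class as a term the median was 1.48, with 5 called higher and 1 lower. GPH1, the glycogen phosphorylase, had 185 and 158 FPKM in sir4∆, 31.1 and 30.0 FPKM in sum1∆ and 126 and 143 FPKM in WT (log2 fold change 2.45 ± 0.10 (SE, n = 2 each), adjusted p = 3.67e-07). GLC3, the glycogen branching enzyme, had 149 and 130.4 FPKM in sir4∆, 27.7 and 28.6 FPKM in sum1∆ and 92.5 and 107 FPKM in WT, a log2 fold change of 2.27. TPS1, trehalose-6-phosphate synthase, and TPS3, a regulatory subunit of the same complex, rose with log2 fold changes of 1.93 and 1.58. The gene that fell was ATH1, the acid trehalase that breaks trehalose down outside the cytosol. It had 10.5 and 8.77 FPKM in sir4∆, 36.4 and 35.2 FPKM in sum1∆ and 12.2 and 13.1 FPKM in WT (-1.79).

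**Figure D2:**
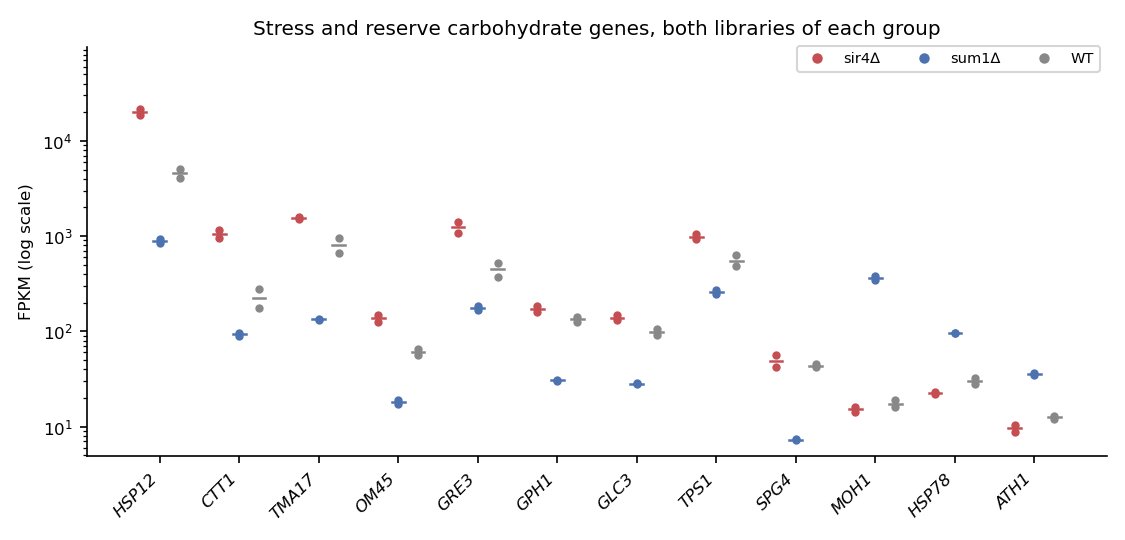
FPKM (log axis) of 12 stress and storage carbohydrate genes in both libraries of sir4∆, sum1∆ and WT, with a short line at each group's mean. The first 9 genes are higher in sir4∆ than in sum1∆, and MOH1, HSP78 and ATH1 are lower.

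The other protein quality lists had few calls. Of 27 chaperone genes 4 fell (14.8%), a share near the 12.7% of all genes. None was called higher by limma, although 6 had a positive change at an unadjusted p below 0.05. The disaggregase HSP104, counted in the stress list, rose (2.27), with 422 and 385 FPKM in sir4∆ and 72.8 and 93.8 FPKM in sum1∆. Of the 4 that fell, MDJ1 (-1.97), HSP60 (-1.39) and HSP10 (-1.09) encode the folding machinery of the mitochondrial matrix, and CPR7 (-1.30) is a cytosolic cochaperone. HSP10 was no longer called with the depth class as a term (-0.97). None of the 34 proteasome genes was called by limma. In that list 18 genes were higher and 1 lower at an unadjusted p below 0.05, with a median of 0.13. The proteasome's activator gene RPN4 had a log2 fold change of -0.65 and PRE4 of 0.39. Of 25 autophagy genes 2 rose (8%, against 4.88% of all genes), 5 after quantile normalization and 1 with depth class as a term. None was called lower by limma, with 2 negative at an unadjusted p below 0.05. ATG8, the ubiquitin-like protein of the autophagosome, rose by 1.34, and ATG2, which takes part in membrane expansion, by 1.13. The ATG2 call was lost with the depth class as a term (0.84) and with a pseudocount of 5 (0.85).

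Respiratory genes split by their role. Of 19 tricarboxylic acid (TCA) cycle genes 4 rose (21.1%, against 4.88% of all genes) and 1 fell (5.26%, against 12.7%), with a median of 0.72. The median member had 578 and 605 FPKM in sir4∆, 326 and 339.6 FPKM in sum1∆ and 764 and 730.2 FPKM in WT, and WT was above both mutants for 16 of the 19. The cycle's genes thus had lower levels in both mutants than in WT for most members, and the lowest in sum1∆. LSC2, a subunit of succinyl-CoA ligase, had 662 and 652 FPKM in sir4∆, 210.2 and 232 FPKM in sum1∆ and 954 and 1018 FPKM in WT (log2 fold change 1.57 ± 0.06 (SE, n = 2 each), adjusted p = 2.19e-07). SDH3, a subunit of succinate dehydrogenase, had 2065 and 2004 FPKM in sir4∆, 806 and 811 FPKM in sum1∆ and 2277 and 2218 FPKM in WT, a log2 fold change of 1.33. FUM1, the fumarase, and ACO1, the aconitase, rose by 1.15 and 1.07. The gene that fell, CIT3, encodes a citrate and methylcitrate synthase of the mitochondrion. It had 0.439 and 0.470 FPKM in sir4∆, 7.504 and 7.19 FPKM in sum1∆ and 0.431 and 0.217 FPKM in WT (-2.52).

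The respiratory chain and ATP synthase had few calls. Of 32 genes 1 rose (3.12%, against 4.88% of all genes) and 3 fell (9.38%, against 12.7%). The list's median was -0.30, and 7 genes fell after quantile normalization. The rise was GUT2, the mitochondrial glycerol-3-phosphate dehydrogenase, which had 513 and 469.7 FPKM in sir4∆, 77.6 and 82.7 FPKM in sum1∆ and 356 and 377 FPKM in WT (log2 fold change 2.60 ± 0.10 (SE, n = 2 each), adjusted p = 2.67e-07). The falls were CYC7, a cytochrome c gene, with 3019 and 3319.8 FPKM in sir4∆, 11837 and 12117 FPKM in sum1∆ and 5453 and 4779 FPKM in WT (-1.92), and QCR6 (-1.21) and CYT1 (-1.12) of complex III. Divided by complex, a division made after the values were seen, all 9 complex III genes had negative fold changes with a median of -0.91, and WT lay between the mutants for each of the 9. All 7 complex IV genes were negative too, with a median of -0.31. The 11 ATP synthase genes had a median of 0.07, or -0.13 after quantile normalization, and WT was above both mutants for all 11. The 3 succinate dehydrogenase genes tested, which belong to the TCA cycle list and include SDH3, were all positive, with a median of 0.91. Succinate dehydrogenase and complex III, which pass electrons to one another through ubiquinone, therefore had medians of opposite sign.

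Among the genes that build the chain all calls were lower in sir4∆. Of 50 assembly factor and ubiquinone genes 13 fell and none was called higher by limma (7 positive at an unadjusted p below 0.05), with a median of -0.62. PET117 had 172 and 202 FPKM in sir4∆, 715 and 700.4 FPKM in sum1∆ and 292 and 284 FPKM in WT (log2 fold change -1.92 ± 0.08 (SE, n = 2 each), adjusted p = 2.76e-07). PET191 (-1.79), COX23 (-1.68) and COX19 (-1.56) fell as well, and like PET117 they serve the assembly of cytochrome c oxidase. Of 17 regulators of respiration and carbon source use 1 was called, ERT1, an activator of gluconeogenic genes, at -1.004. That call was lost after quantile normalization (-0.67), with a pseudocount of 5 (-0.80) and with the depth class as a term (-0.97). It also fell short of the fold threshold without the first sir4∆ library (-0.88) and without the second sum1∆ library (-0.99). In limma 8 of these regulators were higher at an unadjusted p below 0.05, none of them called, and RTG2, a sensor of mitochondrial function, had a log2 fold change of 0.81.

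The mitochondrial ribosome moved as a block. Of 73 genes for its proteins 62 fell and none was positive at an unadjusted p below 0.05 in limma, with a median of -1.30. The median member had 209 and 232 FPKM in sir4∆, 535 and 541 FPKM in sum1∆ and 303 and 274 FPKM in WT. WT lay between the mutants for 70 of the 73, against 2013 of all 5019 genes (40.1%). MRPL15 had 159 and 178 FPKM in sir4∆, 639 and 652 FPKM in sum1∆ and 272 and 229.6 FPKM in WT (log2 fold change -1.93 ± 0.09 (SE, n = 2 each), adjusted p = 5.44e-07). MRP2 (-1.73), MRPL8 (-1.72) and MRP1 (-1.71) had the next largest falls.

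Assembly factors of the cytosolic ribosome fell to a like extent. Of 72 genes of the small-subunit processome and 40S assembly 63 fell (median -1.39), and of 73 genes of 60S assembly 60 fell (median -1.36). In neither list was any gene called higher or positive at an unadjusted p below 0.05 by limma. The median small-subunit factor had 30.9 and 34.9 FPKM in sir4∆, 87.0 and 90.7 FPKM in sum1∆ and 56.2 and 44.7 FPKM in WT. WT lay between the mutants for 65 of 72 small-subunit and 68 of 73 large-subunit factors, with sir4∆ below and sum1∆ above it. When the fit allowed for depth class, the small-subunit list had a median of -1.19 and the 60S list of -1.23, with 49 and 50 genes called lower. The mitochondrial ribosome then had a median of -1.25, with 60 called lower. After quantile normalization 53 small-subunit and 56 large-subunit factors were called lower.

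LCP5, a factor of the small-subunit processome, had 11.8 and 12.7 FPKM in sir4∆, 56.3 and 55.2 FPKM in sum1∆ and 23.5 and 20.3 FPKM in WT (log2 fold change -2.10 ± 0.11 (SE, n = 2 each), adjusted p = 1.07e-06). ESF2 (-1.96), DIM1 (-1.96) and BUD21 (-1.92) fell by similar amounts, and DIM1 encodes the enzyme that dimethylates 18S ribosomal RNA (rRNA). Among large-subunit factors RRP1 had 27.0 and 29.3 FPKM in sir4∆, 135 and 137 FPKM in sum1∆ and 72.8 and 52.9 FPKM in WT (log2 fold change -2.23 ± 0.13 (SE, n = 2 each), adjusted p = 1.56e-06). CGR1 (-2.02), the helicase gene MAK5 (-1.95) and RSA1 (-1.94) followed. Of 30 genes of RNA polymerase I and rRNA modification 12 fell and none was called higher by limma (1 positive at an unadjusted p below 0.05), with a median of -0.93. When the fit allowed for depth class, 5 of them fell. The largest falls there were NOP19 (-2.58), the nucleolin gene NSR1 (-1.49), and the polymerase subunit genes RPA34 (-1.36) and RPC40 (-1.23).

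The genes for the cytosolic ribosomal proteins were not called lower with those for assembly factors. Of 56 cytosolic ribosomal protein genes 1 was called higher and none lower by limma, 50 were positive and 1 negative at an unadjusted p below 0.05, and the median was 0.24. After quantile normalization that median was -0.03, so its sign depends on the scaling. The called gene, RPL9B, had 1389 and 1388 FPKM in sir4∆, 489.8 and 481 FPKM in sum1∆ and 1095 and 1125 FPKM in WT (1.51), and the next largest change was RPL28 at 0.53. The median ribosomal protein gene had 4765 and 4630.1 FPKM in sir4∆, 3643 and 3619.8 FPKM in sum1∆ and 5023 and 4937 FPKM in WT, and WT was above both mutants for 46 of 56.

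Set against WT, the list medians of the mutants lay on opposite sides of it for stress, ribosome assembly and the mitochondrial ribosome. In sir4∆ minus WT, 31 of the 5019 genes were called higher (0.618%) and 37 lower (0.737%), and in sum1∆ minus WT 387 were higher (7.71%) and 143 lower (2.85%). These comparisons share the WT libraries and are given side by side only. The WT libraries also differed along these lists. Their stress medians were 166 FPKM in the deeper first library and 208 FPKM in the second, and their small-subunit medians 56.2 and 44.7 FPKM. In sir2∆ the deeper second library likewise had the lower stress median (192 against 246 FPKM) and the higher small-subunit median (63.7 against 57.5 FPKM). The deeper sum1∆ libraries differ from the sir4∆ ones in the same direction, and why was not tested. The stress list had a median of 0.31 in sir4∆ minus WT (8 called higher) and -0.59 in sum1∆ minus WT (4 higher, 10 lower). The small-subunit factors had medians of -0.49 in sir4∆ minus WT (2 called lower) and 0.81 in sum1∆ minus WT (21 called higher). The 60S factors had medians of -0.59 in sir4∆ minus WT (3 called lower) and 0.79 in sum1∆ minus WT (20 called higher). The mitochondrial ribosome had -0.38 in sir4∆ minus WT (none called) and 0.95 in sum1∆ minus WT (28 called higher). TCA cycle genes were on the same side of WT in both, at -0.36 in sir4∆ minus WT and -0.95 in sum1∆ minus WT, and so were the cytosolic ribosomal proteins, at -0.08 in sir4∆ minus WT and -0.32 in sum1∆ minus WT. The counts of sir4∆ minus WT depend on single libraries, with 17 higher and 19 lower without the first WT library and 70 higher and 62 lower without the second, and 49 higher and 63 lower without the second sir4∆ library.

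**Figure D3:**
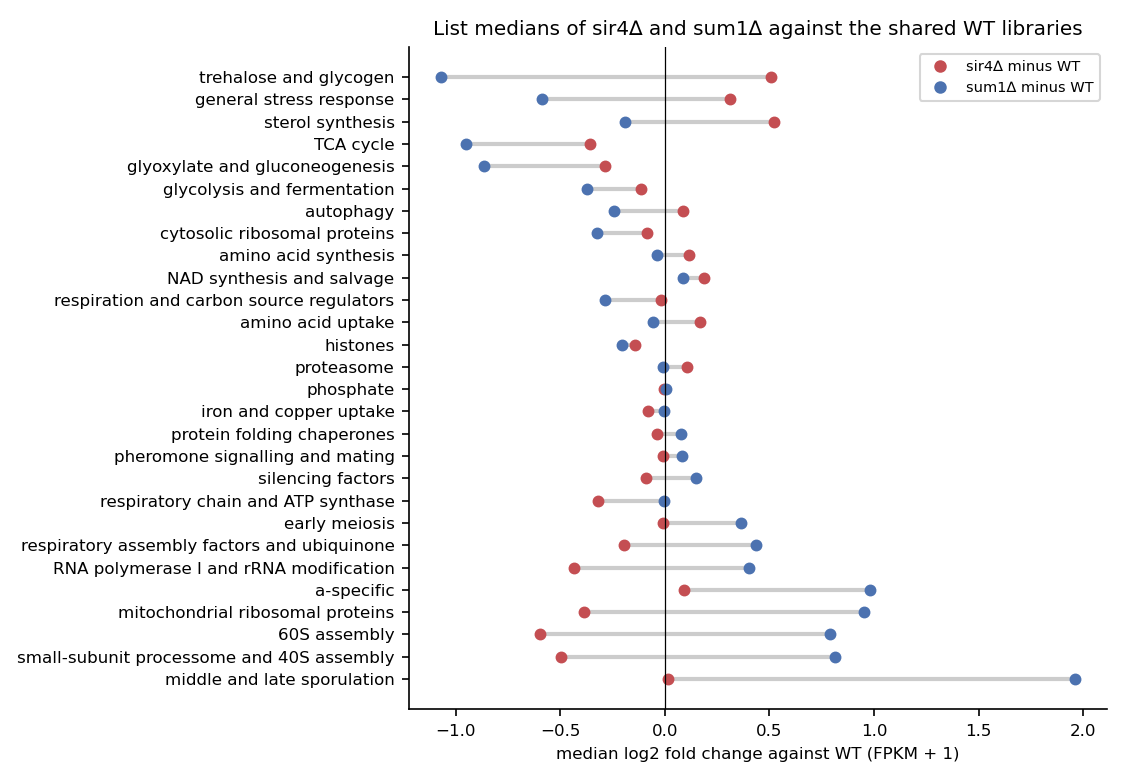
Median log2 fold change against the shared WT libraries of each list with at least 5 tested genes, for sir4∆ (red) and sum1∆ (blue). The ribosome assembly and mitochondrial ribosome lists sit left of 0 in sir4∆ and right of it in sum1∆, the stress and trehalose lists the other way round, and the sporulation list is at 0.02 in sir4∆ and 1.96 in sum1∆.

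Middle and late sporulation genes showed another pattern, in which sir4∆ stayed near WT in the median. Sum1 represses middle sporulation genes in S. cerevisiae, and whether each gene of this list is its target in K. lactis was not tested. Of 38 middle and late sporulation genes 27 fell and none was called higher by limma (2 positive at an unadjusted p below 0.05), with a median of -2.08. In sir4∆ minus WT the list's median was 0.02 and 2 of the 38 were called lower, against 37 (0.737%) of all 5019 genes. In sum1∆ minus WT the list's median was 1.96, with 28 genes called higher. GIP1, which directs a phosphatase to the forming spore wall, had 2.23 and 2.44 FPKM in sir4∆, 171 and 179 FPKM in sum1∆ and 3.35 and 3.21 FPKM in WT (log2 fold change -5.72 ± 0.07 (SE, n = 2 each), adjusted p = 1.33e-09). Of the genes with a symbol GIP1 showed the largest fall. PFS1, needed for prospore membranes, had 1.59 and 2.04 FPKM in sir4∆, 127 and 125 FPKM in sum1∆ and 4.80 and 4.50 FPKM in WT (-5.50). It was among the genes called lower in sir4∆ minus WT (-1.01).

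MUM3, a gene of spore wall formation, had 2.50 and 1.41 FPKM in sir4∆, 109 and 111 FPKM in sum1∆ and 1.94 and 1.19 FPKM in WT (-5.26). CRR1, a spore wall transglycosylase, had 1.66 and 1.56 FPKM in sir4∆, 71.4 and 76.8 FPKM in sum1∆ and 1.70 and 1.44 FPKM in WT (-4.85). SSP2 (-4.69) and the septin gene SPR3 (-4.66) fell by similar amounts, as did RRT8 (-5.09), a gene of spore lipid droplets and the spore wall. In all of these genes the sir4∆ and WT levels were within a few FPKM of each other or of 0, and the sum1∆ levels were far above both. Because sir4∆ levels are so low, the pseudocount of 1 FPKM sets the size of these fold changes in part, and the list's median was -1.53 with a pseudocount of 5.

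Early meiotic genes fell in part. Of 30 tested 9 fell and none was called higher by limma (3 positive at an unadjusted p below 0.05), with a median of -0.47. Quantile normalization turned that median to 0.18, with 4 called higher and 6 lower. IME1, the activator that starts meiosis, had 2.72 and 3.75 FPKM in sir4∆, 59.9 and 57.5 FPKM in sum1∆ and 4.31 and 3.46 FPKM in WT (log2 fold change -3.83 ± 0.13 (SE, n = 2 each), adjusted p = 1.02e-07). PHO92, which binds methylated RNA in meiosis, had 3.43 and 4.35 FPKM in sir4∆, 90.8 and 90.2 FPKM in sum1∆ and 3.07 and 3.57 FPKM in WT (-4.23). NDJ1 (-2.96), which tethers meiotic telomeres, and MND1 (-2.14), a recombination gene, fell as well.

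Some cell-type and mating genes were lower in sir4∆. Of 6 a-specific genes 3 fell, and none was called higher or positive at an unadjusted p below 0.05 by limma. The median was -0.93, or -0.13 after quantile normalization, with 2 then called lower. AGA2, the binding subunit of a-agglutinin, had 6.98 and 6.23 FPKM in sir4∆, 271 and 290.4 FPKM in sum1∆ and 4.98 and 5.75 FPKM in WT (log2 fold change -5.21 ± 0.10 (SE, n = 2 each), adjusted p = 6.87e-09). BAR1, the protease that degrades alpha pheromone, had 0.481 and 0.286 FPKM in sir4∆, 21.7 and 23.2 FPKM in sum1∆ and 0.322 and 0.529 FPKM in WT (-4.08). ASG7, an a-cell regulator of pheromone signalling, fell (-1.20). That call was lost after quantile normalization (-0.39), with a pseudocount of 5 (-0.79) and without the first sum1∆ library (-0.98). None of the 3 alpha-specific genes was called by limma, with 1 higher and 0 lower at an unadjusted p below 0.05, among them AFB1 at 0.33 and STE3 at 0.11, which turned to -0.10 with the depth class as a term.

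Of 27 genes of pheromone signalling and mating 5 fell (18.5%, against 12.7% of all genes) and none was called higher by limma (7 positive at an unadjusted p below 0.05). The median was -0.15, or 0.16 after quantile normalization. STE18, the gamma subunit of the pheromone receptor's G protein, had 0 and 2.49 FPKM in sir4∆, 63.0 and 52.8 FPKM in sum1∆ and 2.49 and 2.30 FPKM in WT (log2 fold change -4.97 ± 0.46 (SE, n = 2 each), adjusted p = 2.27e-05). PRM1 (-3.68), for membrane fusion, KAR4 (-3.04), a transcription factor for nuclear fusion, and GPA1 (-2.21), the alpha subunit of the same G protein, fell too. KAR4 had 8.35 and 6.95 FPKM in sir4∆, 75.3 and 65.3 FPKM in sum1∆ and 7.95 and 7.79 FPKM in WT.

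NAD genes moved both ways. Of 9 tested 1 rose (11.1%, against 4.88% of all genes) and 2 fell (22.2%, against 12.7%), with a median of 0.17. NPT1, which makes the NAD precursor nicotinic acid mononucleotide, had 114 and 118 FPKM in sir4∆, 1029 and 1026 FPKM in sum1∆ and 134 and 140.2 FPKM in WT (log2 fold change -3.14 ± 0.06 (SE, n = 2 each), adjusted p = 5.09e-09). TNA1, the nicotinic acid transporter, had 234 and 234 FPKM in sir4∆, 1085 and 1106 FPKM in sum1∆ and 225 and 234 FPKM in WT (-2.22). The rise was POS5, the mitochondrial NADH kinase, with 418 and 405 FPKM in sir4∆, 102 and 114 FPKM in sum1∆ and 295 and 347 FPKM in WT (1.93). Of 19 silencing factor genes SUM1 was the rise called, and HST2, a cytosolic deacetylase of the Sir2 family, the fall (-1.20). The HST2 call was lost after quantile normalization (-0.65) and with a pseudocount of 5 (-0.84). The silencing list's median was -0.17, or 0.07 after quantile normalization.

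**Figure D4:**
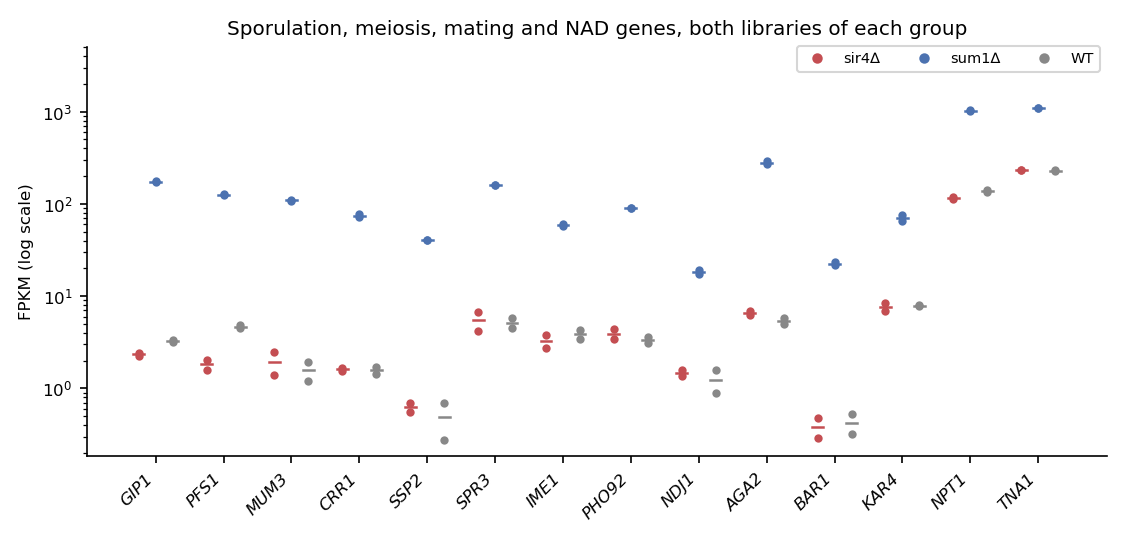
FPKM (log axis) of 14 sporulation, meiosis, mating and NAD genes in both libraries of sir4∆, sum1∆ and WT, with a short line at each group's mean. For every gene both sir4∆ libraries lie below both sum1∆ libraries.

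A wider set of genes was taken from libraries outside the contrast, by their sir2∆ label. In sir2∆ minus WT 244 genes were called higher (4.86% of 5019) and 36 lower (0.717%), and the genes higher without Sir2 were then followed in sir4∆ minus sum1∆. Of the 244, 196 fell (80.3%), 5 rose (2.05%) and the median was -2.21. Of the 4775 other genes 439 fell (9.19%). The genes higher without Sir2 made up 30.9% of all 635 falls. Among the 114 with a log2 fold change of at least 2 in sir2∆ minus WT, 107 fell (93.9%), with a median of -3.64. Relative to WT, the 244 had a median of -0.09 in sir4∆, with 4 called higher and 8 lower, and of 1.98 in sum1∆, with 205 called higher. These values reuse the WT libraries by which the genes were chosen, and are given side by side only.

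Across all 5019 genes the fold changes of sir2∆ minus WT and of sir4∆ minus sum1∆ had a Pearson correlation of -0.81 and a Spearman correlation of -0.73. Without the 244 genes they were -0.66 and -0.70 over 4775 genes. These contrasts share no library, but their points share gene length and annotation, and genes are not independent replicates. The list medians in sir2∆ minus WT were 0.57 for the mitochondrial ribosome, 0.30 for small-subunit factors and 0.26 for 60S factors, positive as in sum1∆ minus WT. The stress list did not follow that pattern, with 0.21 in sir2∆ minus WT and -0.59 in sum1∆ minus WT. The trehalose and glycogen list was negative in both, at -0.82 in sir2∆ minus WT (1 called higher, none lower) and -1.07 in sum1∆ minus WT (1 higher, 4 lower).

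**Figure D5:**
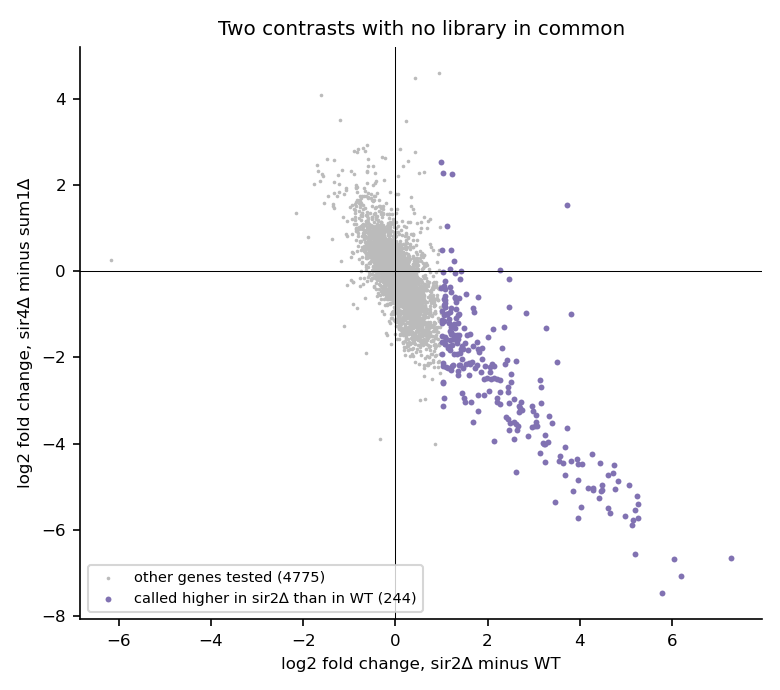
Log2 fold changes of each tested gene in sir2∆ minus WT (horizontal axis) and in sir4∆ minus sum1∆ (vertical axis), contrasts with no library in common. The 244 genes called higher in sir2∆ than in WT (purple) fall mainly in the lower right, with 196 of them called lower in sir4∆ than in sum1∆.

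The 5 genes higher without Sir2 that rose went against the rest. FMP16, a mitochondrial protein gene of the stress response, had 948 and 660.0 FPKM in sir4∆, 129.9 and 139.6 FPKM in sum1∆, 156 and 229 FPKM in WT and 406 and 355 FPKM in sir2∆ (2.54 in sir4∆ minus sum1∆). The other 4 carry no symbol. They were KLLA0F20900g (2.27), KLLA0C19547g (2.26), KLLA0B14927g (1.53) and KLLA0D19953g (1.06).

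Some genes of carbon metabolism beyond the TCA cycle were higher in sir4∆. Of 15 glyoxylate and gluconeogenesis genes 4 rose and none was called lower by limma (3 negative at an unadjusted p below 0.05), with a median of 0.42. FBP1, fructose-1,6-bisphosphatase, had 323 and 331 FPKM in sir4∆, 71.8 and 76.7 FPKM in sum1∆ and 412 and 398 FPKM in WT (log2 fold change 2.12 ± 0.05 (SE, n = 2 each), adjusted p = 2.54e-08). PCK1 (1.57), phosphoenolpyruvate carboxykinase, and GUT1 (1.44), glycerol kinase, rose with it. CAT2, a carnitine acetyltransferase, rose by 1.07, a call lost with a pseudocount of 5 (0.90) and without the first sir4∆ library (0.99). Glycerol kinase and the glycerol-3-phosphate dehydrogenase gene GUT2 act in sequence, and both were higher in sir4∆.

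In glycolysis and fermentation 7 of 19 genes rose and 1 fell (median 0.33), against 3 and 2 after quantile normalization. PFK2 and PFK1, the subunits of phosphofructokinase, rose by 1.56 and 1.40, and phosphofructokinase and FBP1 catalyse opposed steps. ALD4, the mitochondrial aldehyde dehydrogenase, had 49.0 and 47.7 FPKM in sir4∆, 6.51 and 5.94 FPKM in sum1∆ and 75.0 and 70.9 FPKM in WT (log2 fold change 2.77 ± 0.11 (SE, n = 2 each), adjusted p = 2.21e-07). TPI1, triosephosphate isomerase, rose by 1.36, a call lost after quantile normalization (0.96). ARO10, a decarboxylase of the fusel alcohol pathway, fell (-1.44). SUC2, the invertase gene, had 1349.6 and 1227 FPKM in sir4∆ and 179 and 199 FPKM in sum1∆ (2.76).

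Sterol synthesis genes had calls in one direction. Of 25 tested 8 rose and none was called lower by limma (1 negative at an unadjusted p below 0.05), with a median of 0.74 and with WT between the mutants for 18. ERG1, squalene epoxidase, had 1569.5 and 1520.0 FPKM in sir4∆, 256 and 301 FPKM in sum1∆ and 634 and 810.3 FPKM in WT (log2 fold change 2.47 ± 0.12 (SE, n = 2 each), adjusted p = 8.72e-07). ERG11 (2.08), lanosterol demethylase, ERG3 (2.01), a desaturase, and ERG25 (1.89), a methyl oxidase, rose with it, and all of these enzymes use oxygen. The list's median was 0.52 in sir4∆ minus WT and -0.19 in sum1∆ minus WT.

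Of 20 iron and copper uptake genes 3 fell, a share near the 12.7% of all genes, and none was called higher by limma (7 positive at an unadjusted p below 0.05), with a median of -0.03. FRE1, a metal reductase of the plasma membrane, had 159 and 177 FPKM in sir4∆ and 745 and 771 FPKM in sum1∆ (-2.17). CTR1 (-1.58), the copper transporter, fell too, as did FET4 (-1.07), a low-affinity iron transporter. The FET4 call was lost after quantile normalization (-0.85) and with a pseudocount of 5 (-0.94). Phosphate genes numbered 14, of which 1 rose, PHO91 (1.48), and 2 fell, SPL2 (-2.86) and the activator PHO4 (-1.29), around a median of 0.10. These shares (7.14% higher and 14.3% lower) are near the 4.88% and 12.7% of all genes.

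Of 80 amino acid synthesis genes 3 rose (3.75%, against 4.88% of all genes) and 4 fell (5%, against 12.7%), with a median of 0.17. The rises were MET17 (1.71) and MET5 (1.58) of sulfur assimilation and BAT1 (1.32), a transaminase of branched-chain amino acids. The falls were MET14 (-3.06), the kinase of activated sulfate, AAT1 (-1.44), an aspartate aminotransferase, MET1 (-1.32), for the cofactor of sulfite reductase, and LYS5 (-1.11), for lysine synthesis. MET14 had 10.9 and 8.25 FPKM in sir4∆, 84.3 and 88.1 FPKM in sum1∆ and 7.89 and 8.51 FPKM in WT, so genes of the same sulfur pathway moved in both directions. The calls of MET1 (-0.96) and LYS5 (-0.65) were lost after quantile normalization, and that of LYS5 also without the first sir4∆ library (-0.96).

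Of 20 amino acid uptake genes 1 rose, the peptide transporter PTR2 (2.09), a share of 5% near the 4.88% of all genes. None was called lower by limma (3 negative at an unadjusted p below 0.05), with a median of 0.14. AVT1, a vacuolar transporter, missed the fold threshold at 0.99 and passed it without the second sir4∆ library (1.09) or the second sum1∆ library (1.01). None of 10 histone genes was called by limma, with 4 higher and 3 lower at an unadjusted p below 0.05. Their median was 0.14, or -0.10 after quantile normalization, and the largest changes were HTA1 (-0.67) and HTZ1 (0.60).

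Most of the rises lay outside all of these groups. Of the 245, 53 (21.6%) were in a pathway list, 97 (39.6%) carried no symbol, and 188 (76.7%) were neither in a list nor among the genes higher without Sir2. Pathway lists were matched by symbol, which 3956 of the 5019 tested genes carry, so a gene without one could not be in a list. The share of all tested genes in a list was not counted, so the list shares given here have no background beside them. Of the 635 falls, 281 (44.3%) were in a list, 135 (21.3%) in the ribosome assembly lists, 62 (9.76%) in the mitochondrial ribosome and 44 (6.93%) in the sporulation, meiosis and mating lists, and 207 (32.6%) were in no list and not among the genes higher without Sir2. The largest differences of genes with no symbol were larger than those of any named gene that fell. KLLA0A05687g had 0 and 0.345 FPKM in sir4∆, 207 and 203 FPKM in sum1∆ and 0.518 and 0.957 FPKM in WT (-7.47). KLLA0C17226g had 0.140 and 0.249 FPKM in sir4∆, 159 and 160.1 FPKM in sum1∆ and 0.249 and 0.115 FPKM in WT (-7.07). The largest rises with no symbol were KLLA0C18117g (4.09), with 4815 and 3886 FPKM in sir4∆ and 240.0 and 266 FPKM in sum1∆, and KLLA0B04466g (2.94), with 3433 and 3339.8 FPKM in sir4∆ and 393 and 496 FPKM in sum1∆.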

How the data were processed

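The authors deposited FPKM values for 5076 genes in each of 8 libraries. TopHat2 2.0.10 and Cuffnorm 2.2.1 are named in the submitters' processing notes, while the build and gene annotation used for mapping were not given in the sources used here. Per the labels' protocols, total RNA was taken with hot phenol and DNase, and libraries from a non-stranded kit were read as single 50-base reads, so reads of overlapping genes on opposite strands are mixed, and near-identical copies can split each other's reads. Every one of the 5076 gene IDs was found among the locus tags of a RefSeq gene table (assembly ASM251v1), which gave 3959 symbols.

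From these values log2(FPKM + 1) was fitted with limma 3.58.1 (R 4.3.3) with an intensity trend over all 8 libraries in 4 groups, which share 1 estimate of the spread, and sir4∆ minus sum1∆ was tested for the 5019 genes with a mean of 1 FPKM or more in these 4 libraries. The other 57 include 48 listed at 0 in all 4. On this log2(FPKM + 1) scale the change of weakly expressed genes is understated. P-values were adjusted by Benjamini-Hochberg over all 5019 genes. Reads per library were estimated from the spacing of low FPKM values, with the scale of each library chosen to give whole reads. Gene lengths for this step came from rounded reads of the first sir4∆ library. That 100% of the low genes used came out within 0.1 of whole reads is therefore no independent check. The low genes used numbered 119 in each sir4∆ library, and 13 and 7 in the sum1∆ libraries. The fit was checked on simulated data.

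The members and the 29 pathway lists (962 symbols, named in the report with their counts) were chosen with earlier results of these data known, so lists carry counts and medians and no set test. Genes were named by a rule: SUM1, SIR2 and SIR4 where a symbol exists, the 10 largest called rises and falls with a symbol, the 2 largest without one, and in each list the 4 largest called changes in each direction (in lists with under 3 calls, the 2 largest changes in addition). Alternatives tried were the pseudocount (0.1 and 5), the level filter (none and 5 FPKM), median-ratio scaling, quantile normalization, a fit over the 4 libraries alone, no trend, the adjusted p alone, limma's treat, depth class, a replicate block and leaving out each library. A planned look at promoter motifs was not run.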

Additional observations from a re-analysis of the deposited data

How the results depend on the processing

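With the adjusted p alone, sir4∆ minus sum1∆ gave 1864 genes higher and 1824 lower, sir4∆ minus WT 842 and 1051, and sum1∆ minus WT 1688 and 1634. When limma's treat required a log2 fold above 1, the counts were 132 higher and 426 lower in sir4∆ minus sum1∆, 0 higher and 0 lower in sir4∆ minus WT, and 199 higher and 65 lower in sum1∆ minus WT. With depth class as a term, 19 genes were higher in sir4∆ minus WT. Leaving out 1 library at a time gave 215 to 283 higher and 623 to 671 lower in sir4∆ minus sum1∆, and 17 to 70 higher and 19 to 63 lower in sir4∆ minus WT.

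Quantile normalization gave medians in sir4∆ minus sum1∆ of 1.39 for stress, -0.53 for the respiratory chain, -1.23 for small-subunit factors, -1.58 for sporulation and -1.83 for the genes higher without Sir2. It turned the medians of early meiosis (0.18), pheromone signalling (0.16), silencing factors (0.068), histones (-0.10) and cytosolic ribosomal proteins (-0.029). Depth class as a term gave -0.22 for the respiratory chain, -1.19 for small-subunit and -1.23 for 60S factors, and turned STE3 (-0.10). For sporulation the median was -2.15 with a pseudocount of 0.1, -1.53 with 5, -2.00 with a 5 FPKM filter, and -2.13 to -1.88 with 1 library left out. For the genes higher without Sir2 it was -2.36 with a pseudocount of 0.1, -1.82 with 5, -3.64 at a log2 fold of 2 or more, and -2.28 to -2.21 with 1 library left out. Causes were not tested.

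Of 116 named genes, 109 kept their direction and their call with a pseudocount of 5, 108 after quantile normalization and 112 with depth class as a term. Median-ratio scaling, no intensity trend, no filter, the 4 libraries alone and a pseudocount of 0.1 changed no call of the 116.

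With replicate number as a block, 245 genes were higher and 635 lower, and it changed no call of a named gene. Deviations of same-numbered sir4∆ and sum1∆ libraries correlated at -0.078, and over all pairs of groups at -0.252 to 0.025. Same-numbered libraries thus did not clearly deviate in the same direction. The negative values of WT with sir4∆ (-0.252) and WT with sir2∆ (-0.170) were not examined further.

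Depth limits low genes most: 2 libraries a group and 10.6 to 11.5 M reads in sir4∆ leave values near 0 FPKM resting on few reads.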

Other observations

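Chromosome-end genes, taken after the values were seen as the outermost 10 protein-coding genes at each of 12 chromosome ends, moved in both directions. Of 120 such genes 83 passed the level rule, and 21 (25.3%) were called higher in sir4∆ than in sum1∆ and 13 (15.7%) lower, against 4.88% and 12.7% of all genes, with a median of 0.30, and with depth class as a term 14 were higher and 13 lower. After quantile normalization 27 were higher and 10 lower. In sir4∆ minus WT 3 of the 83 were called higher and 5 lower, against 31 (0.618%) and 37 (0.737%) of all 5019 genes. In sum1∆ minus WT 10 of the 83 were higher and 10 lower, against 387 (7.71%) and 143 (2.85%) of all genes.

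Further genes were singled out after their values were seen and carry no list test. The galactose genes GAL1, GAL7 and GAL10, which lie in one cluster and break galactose down, were all higher in sir4∆. GAL1 had 559 and 556 FPKM in sir4∆, 186 and 201 FPKM in sum1∆ and 476 and 511 FPKM in WT (1.52), and GAL7 and GAL10 had log2 fold changes of 1.75 and 2.06. Their activator gene GAL4 had a log2 fold change of 0.01 and the inhibitor gene GAL80 of 0.90, neither of them called.

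PDH1, which acts with CIT3 in propionate breakdown, had 1.45 and 1.84 FPKM in sir4∆, 24.7 and 24.2 FPKM in sum1∆ and 3.11 and 4.10 FPKM in WT (-3.27). ICL2, of the same pathway, had a log2 fold change of -0.63 and was not called. PEX11, which divides peroxisomes, was higher in sir4∆ (2.04), while POX1, the first enzyme of peroxisomal fatty acid oxidation, was lower (-2.20). FOX2 (-0.03) and POT1 (-0.20), which act after POX1, were not called. HEM13, an oxygen-using enzyme of haem synthesis, rose by 2.23 and SUR2, a sphingolipid hydroxylase, by 2.21.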
